A study of Mus musculus with 14 samples.

Results

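Wild-type J1 mouse embryonic stem cells treated with PRT4165, an inhibitor of Polycomb repressive complex 1 (PRC1), were compared with the same cells treated with its solvent, dimethyl sulfoxide (DMSO, the vehicle). The comparison rests on 4 of the 14 libraries of the study, 2 for each treatment, and on 14938 of the 37991 genes in the deposited table, which had enough reads in these 4 libraries to be tested. J1 is 1 established line of the strain 129S4/SvJae, and the cells of both treatments are labelled wild type. The study sequenced poly(A) RNA of this line in 7 groups of 2, set within work on epigenetic reprogramming of germ cells. The other groups cross the same 2 treatments with cells lacking the DNA methyltransferases Dnmt1, Dnmt3a and Dnmt3b (Dnmt-TKO, here TKO cells), or are untreated wild-type, Dnmt-TKO or Tet1-KO Dnmt-TKO cells. The TKO libraries enter here only for the estimate of spread and for the test of whether a response differs between genotypes. Neither the dose of PRT4165 nor the length of treatment is stated in the sources used. Ubiquitination of histone H2A was not measured in these files, so the action on the enzyme itself is not seen in them. The labels number the libraries without naming separate cultures. The p-values therefore reflect the spread of these particular samples, and that spread may be technical.

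PRC1 is a ubiquitin ligase complex whose catalytic proteins, encoded by Ring1 and Rnf2, attach ubiquitin to a lysine of histone H2A. In embryonic stem cells it sits with Polycomb repressive complex 2 at promoters rich in CpG, many of them at genes for developmental transcription factors that are kept silent until differentiation. PRT4165 is a small molecule used to block the ligase activity of PRC1. A separate system, the heat shock response, is run by the transcription factor HSF1, which on protein damage binds inverted repeats of the letters GAA upstream of chaperone genes.

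Levels are in CPM, the unit of read counts scaled to a common library size. A change is the log2 ratio of inhibitor to vehicle from edgeR's quasi-likelihood fit. Its standard error (SE) is approximate, the size of the change divided by the square root of the test's F statistic. A gene was called where the p-value adjusted over all 14938 genes was under 0.05. Rising calls numbered 3040, or 20.4% of the genes tested, and falling calls 3121, or 20.9%. These shares are the background for every count below. The calls were unequal in size. Of the rising genes 761 rose by more than 2-fold and 177 by more than 8-fold, whereas 182 and 6 genes fell that far. A further 1231 rising and 1549 falling genes moved by less than 1.25-fold. The 4 libraries held 25588815 to 37399837 reads, and the first principal component of their log2 levels separated the treatments with 82.5% of the variance. The vehicle libraries stood apart from each other. They lay at opposite ends of the second component (17.5 and -17.8, with 9.44% of the variance), and their counts differed by a chi-square of 9.04 per gene, against 1.81 to 3.45 between the libraries of the other 3 groups in the fit. Values without 1 of them are given for some calls and counts that rest on them. The last section lists every named gene whose call changed. Stem cell identity markers were present throughout, with a summed level of 5705 and 5565 CPM for 8 markers with vehicle and 4934 and 4757 CPM with the inhibitor. Of 8 fibroblast markers, 6 were under 1 CPM in every library and Dcn was at 0. Because the RNA is from bulk cultures, fewer cells of a type and less RNA per cell cannot be told apart.

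**Figure D1:**
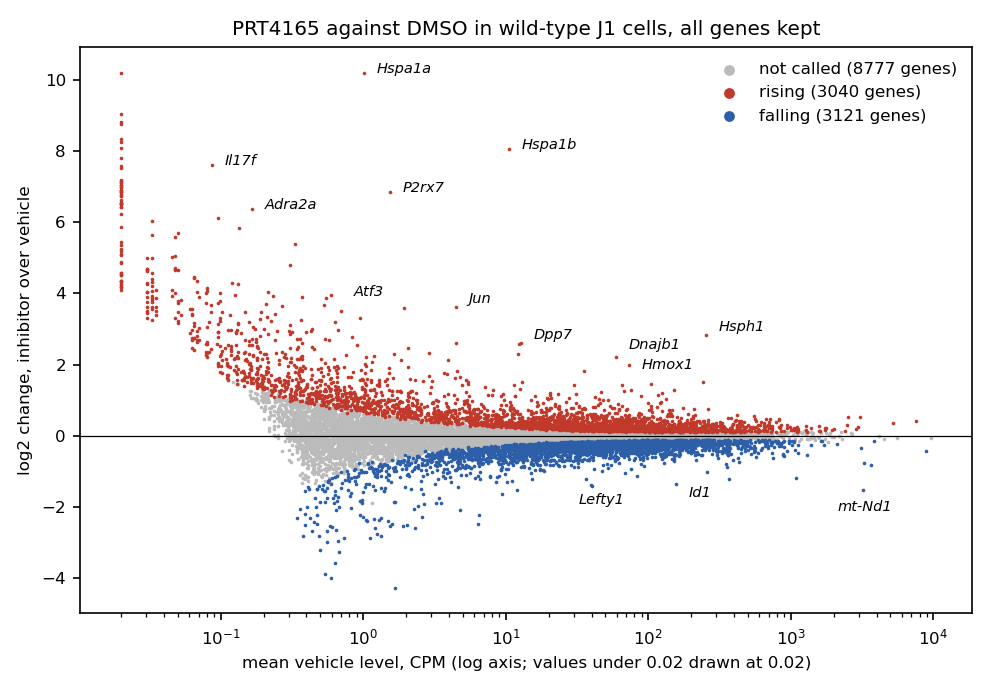
Log2 change with PRT4165 against the mean vehicle level in CPM on a log axis, 1 point a gene, for the 14938 genes tested in wild-type cells. Points in red (3040 genes) rose, points in blue (3121 genes) fell and grey points were not called. The large rises lie among genes near silence in vehicle, with Hspa1a, Hspa1b and P2rx7 standing above genes of their own level. Genes silent in vehicle were tested only where their inhibitor libraries had enough reads, which favours rises at the left of the plot.

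Among genes at 1 CPM or more with vehicle, Hspa1a and Hspa1b had the largest rises. Of 36 heat shock chaperones and their regulators 26 rose and 2 fell, with a median log2 change of 0.29 beside -0.000387 over all genes tested. Hspa1a and Hspa1b encode the stress-inducible HSP70 that refolds damaged proteins. Hspa1b stood at 10.9 and 10.1 CPM with vehicle and 2499 and 3158 CPM with the inhibitor (log2 change 8.07, SE 0.11, edgeR adjusted p = 7.8e-22). Hspa1a stood at 0.736 and 1.28 CPM with vehicle and 1056 and 1352 CPM with the inhibitor (log2 change 10.19, SE 0.15, edgeR adjusted p = 1.2e-21). The libraries of the treatments do not overlap for either gene, and the pair went from 0.00113% and 0.00111% of all reads with vehicle to 0.340% and 0.439% with the inhibitor. Near-identical copies such as these may share reads, and Hspa1a also overlaps a predicted gene over 19% of its exon length.

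Stretches upstream of chaperone and other stress genes are shown because they hold the letters searched for HSF1, GAANNTTC or TTCNNGAA, which read the same on both strands and may overlap each other. They are RefSeq sequence of build GRCm38.p6, written 5′ to 3′ along the gene's strand, with the matched letters in capitals. The order follows the size of the rise.
Hspa1a (chr17:34972241-34972272, minus strand): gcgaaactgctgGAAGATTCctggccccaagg
Hspa1b (chr17:34959323-34959354, minus strand): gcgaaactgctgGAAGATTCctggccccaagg
Jun (chr4:95052331-95052362, minus strand): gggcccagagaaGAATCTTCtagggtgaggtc
Hsph1 (chr5:149636350-149636381, minus strand): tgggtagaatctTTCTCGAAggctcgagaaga
Zfand2a (chr5:139484668-139484699, minus strand): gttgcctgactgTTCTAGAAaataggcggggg
Dnaja1 (chr4:40722332-40722363, plus strand): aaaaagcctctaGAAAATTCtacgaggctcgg
Hspb1 (chr5:135887790-135887841, plus strand): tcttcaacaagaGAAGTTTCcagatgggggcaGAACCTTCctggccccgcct
Hspe1 (chr1:55088047-55088088, plus strand): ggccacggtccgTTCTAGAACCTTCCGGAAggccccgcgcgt
The stretch is the same in Hspa1a and Hspa1b, with the match 104 bases before each start. The Hspe1 stretch lies between that gene and Hspd1, which are read in opposite directions from the same 42 bases with 3 overlapping matches. Of the chaperone and DnaJ genes with a promoter window (250 bases before to 50 after the start), 15 of the 25 that rose held a match (60%), as did 2 of the 37 that did not rise (5.41%). Over all 10899 tested genes with a window the share was 13.7%. A match is a run of letters and not a measured site, and the windows of Dnajb1 and Serpinh1, which also rose, held none.

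Transcripts for partners of HSP70 rose too. Hsph1, the exchange factor HSP110, rose from 259 and 248 to 1728 and 1899 CPM (log2 change 2.84, SE 0.05, edgeR adjusted p = 2.7e-19). Dnajb1, which delivers clients to HSP70, rose from 58.1 and 61.3 to 255 and 297 CPM (log2 change 2.21, SE 0.06). Bag3, which passes HSP70 clients to autophagy, rose from 11.6 and 13.3 to 71.2 and 79.8 CPM (log2 change 2.59, SE 0.08). Each of these genes had its inhibitor libraries within 1.2-fold of each other and at least 4 times above either vehicle library. Hspa1l, an HSP70 gene known from the testis, stood at 0.385 and 0.274 CPM with vehicle and 13 and 14.6 CPM with the inhibitor (log2 change 5.38, SE 0.21), and overlaps another gene over 71.9% of its exon length. The small heat shock protein gene Hspb8, a partner of Bag3, rose from 3.54 and 4.3 to 15.7 and 19.18 CPM (log2 change 2.13, SE 0.12), and Hspa4l, an HSP110 relative, by 1.77. Serpinh1, the collagen chaperone of the endoplasmic reticulum, rose from 125 and 124 to 277 and 292 CPM (log2 change 1.19, SE 0.04).

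Chaperones that are abundant without stress moved less. Hsp90ab1 rose from 7556 and 7475 to 10328 and 9894 CPM (log2 change 0.43, SE 0.04, edgeR adjusted p = 2e-07), and Hspa8, the constitutive HSP70, by 0.54 (SE 0.04). Hsp90aa1 rose by 0.36, Hspb1 by 0.40, Dnaja1 by 0.42, and the mitochondrial pair Hspe1 and Hspd1 by 0.39 and 0.31. Co-chaperones outside these families went both ways. Of 41 DnaJ genes 7 rose and 12 fell, and of 14 subunits and helpers of the CCT chaperonin 4 rose and 2 fell. Hsf1, the gene of HSF1 itself, stood at 39.9 and 46.3 CPM with vehicle and 52.4 and 48.9 CPM with the inhibitor. That rise of 0.23 (edgeR adjusted p = 0.00766) was not called without vehicle replicate 1 (0.14) or without inhibitor replicate 1 (0.17). Hsf2 stood at 43.5 and 43.6 CPM with vehicle and 45 and 48.5 CPM with the inhibitor and was not called (edgeR adjusted p = 0.185).

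Genes of the stress response of the endoplasmic reticulum went both ways. Hspa5, which encodes the main HSP70 of that compartment, fell from 906 and 855 to 634 and 612 CPM (log2 change -0.50, SE 0.04, edgeR adjusted p = 1.8e-08). Dnajc3, its partner, fell by 0.30 on the log2 scale, and Hsp90b1 stood at 508 and 467 CPM with vehicle and 503 and 511 CPM with the inhibitor (edgeR adjusted p = 0.327, and 0.0336 without vehicle replicate 1). Of 28 genes of the endoplasmic reticulum unfolded protein response 6 rose and 7 fell. Herpud1, which acts in degradation from that compartment, was the member with a rise over 2-fold, from 10.8 and 12.5 to 24.4 and 26.6 CPM (log2 change 1.12, SE 0.09).

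Genes that label or bind damaged proteins rose in part. Of 25 genes for ubiquitin and aggregate handling 11 rose and 3 fell. Sqstm1, the autophagy receptor p62, rose from 102 and 99.5 to 169 and 166 CPM (log2 change 0.74, SE 0.04), and Zfand2a, a proteasome adaptor induced by arsenite, from 21.3 and 22.7 to 39.2 and 42.8 CPM (log2 change 0.89, SE 0.07). Ubb rose by 0.27. Of 40 proteasome subunits 11 rose and 7 fell, with a median of 0.02.

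**Figure D2:**
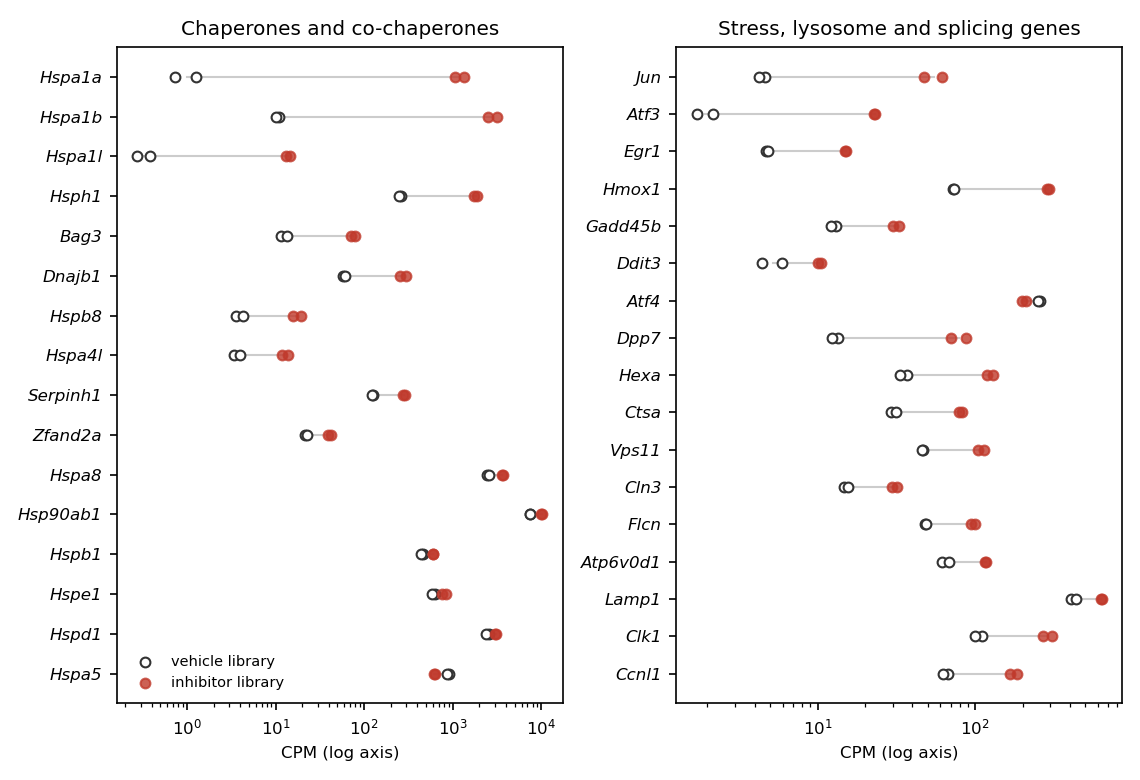
Levels in CPM on a log axis in each of the 4 wild-type libraries, with open circles for vehicle and red circles for inhibitor, and a grey line between group means. Hspa1a, Hspa1b and Hspa1l moved by orders of magnitude, abundant chaperones such as Hspa8 moved little, and Hspa5 and Atf4 lay lower with the inhibitor.

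Immediate early genes, which respond within minutes to growth factors or stress, were the next group. Of 27 tested 15 rose and 5 fell, with a median of 0.49. Jun, a subunit of the transcription factor AP-1, rose from 4.66 and 4.24 to 47.7 and 61.9 CPM (log2 change 3.61, SE 0.12, edgeR adjusted p = 2.5e-15). Atf3, a stress-induced repressor and partner of Jun, rose from 2.17 and 1.71 to 23 and 23.2 CPM (log2 change 3.58, SE 0.13, edgeR adjusted p = 2e-14). Egr1 rose from 4.7 and 4.87 to 14.9 and 15.2 CPM (log2 change 1.65, SE 0.12), and Ier5, a factor reported to act with HSF1, by 1.75. Egr2 stood at 0.105 and 0.0914 CPM with vehicle and 1.59 and 1.69 CPM with the inhibitor. Fos, the usual partner of Jun, moved much less, from 5.96 and 6.49 to 8.63 and 8.91 CPM (log2 change 0.49, SE 0.12), and Ier2 fell by 0.31.

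The integrated stress response slows translation and raises ATF4 protein, which induces amino acid and stress genes. Of 44 genes of that response 21 rose and 5 fell, with a median of 0.13. Ddit3, the factor CHOP, rose from 4.45 and 5.91 to 10.5 and 10 CPM (log2 change 0.98, SE 0.13), and Sesn2, an inhibitor of growth signalling, from 82.9 and 86.3 to 128 and 126 CPM (log2 change 0.59, SE 0.04). Rises of Trib3 (0.30) and Chac1 (0.42) were small. Asns, a widely used ATF4 target, stood at 271 and 268 CPM with vehicle and 289.6 and 279 CPM with the inhibitor and was not called (edgeR adjusted p = 0.142). The transcript of Atf4 fell from 259.7 and 251 to 198 and 209 CPM (log2 change -0.33, SE 0.04).

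Of 37 listed targets of NRF2, the transcription factor of oxidative stress, 13 rose and 6 fell, and 2 rose by more than 2-fold. Hmox1, which encodes heme oxygenase and responds to several stresses, rose from 72.3 and 73.9 to 292 and 287 CPM (log2 change 1.99, SE 0.05, edgeR adjusted p = 1.4e-17), with no overlap between libraries. The other was Osgin1, which had no read with vehicle and 0.391 and 1.28 CPM with the inhibitor (at least 15.5-fold higher, against 3 reads over the vehicle group). Nqo1 stood at 37.5 and 36.8 CPM with vehicle and 38.5 and 37 CPM with the inhibitor and Srxn1 at 73 and 75.9 CPM with vehicle and 78.6 and 75.4 CPM with the inhibitor, and neither was called. Gclm rose by 0.26, Gsta4 fell by 0.50, and Nfe2l2, which encodes NRF2, stood at 71.5 and 78.2 CPM with vehicle and 69.8 and 75.2 CPM with the inhibitor and was not called. Of 7 metal response genes 1 rose and 3 fell, with Mt1 at 98.4 and 106 CPM with vehicle and 100.1 and 98.7 CPM with the inhibitor and Mt2 lower by 0.32 on the log2 scale. Of 34 genes of glycolysis and the hypoxia response 16 rose and 4 fell, with a median of 0.11. Of 43 p53 targets 18 rose and 7 fell with a median of 0.12. Trp53 itself rose by 0.26, Mdm2 by 0.37, Cdkn1a by 0.44 and Plk2 by 0.83.

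Lysosomal genes were a further group, found among the large changes, so the list below was written after their values were seen and carries no test of its own. Of 79 lysosomal genes tested 41 rose, 3 fell and 35 were not called, with a median of 0.19. Dpp7, a lysosomal peptidase, rose from 13.4 and 12.3 to 70.5 and 87.7 CPM (log2 change 2.61, SE 0.10, edgeR adjusted p = 3.4e-14). Hexa, a subunit of the hexosaminidase missing in Tay-Sachs disease, rose from 37 and 33.5 to 119.5 and 130.0 CPM (log2 change 1.82, SE 0.06), and Ctsa, a carboxypeptidase that protects other lysosomal enzymes, from 29.2 and 31.5 to 79.5 and 82.8 CPM (log2 change 1.42, SE 0.06). Vps11, part of the tethers that fuse vesicles with lysosomes, rose by 1.23, Flcn, which acts in nutrient sensing at the lysosome, by 1.00, and Cln3 by 1.01. Lamp1, the abundant membrane protein, rose from 406 and 439 to 627 and 636 CPM (log2 change 0.58, SE 0.05). The 12 listed genes of the proton pump had 7 rising and 1 falling, among them Atp6v0d1 (0.84) and Atp6v0b (0.84). In all 4 libraries the summed level of the list was 4446 and 4469 CPM with vehicle and 5524 and 5503 CPM with the inhibitor.

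The letters CACGTG, the core bound by TFEB and other helix-loop-helix factors, lie within the promoter window of 15 of 32 rising lysosomal genes (46.9%), of 6 of 32 that did not rise (18.8%) and of 11.5% of all tested genes. Examples of the stretches with their matches in capitals are shown for 6 rising genes with a match.
Dpp7 (chr2:25356390-25356415, minus strand): gccagactatCACGTGatgctgcccc
Ctsa (chr2:164833751-164833772, plus strand): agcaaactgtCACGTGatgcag
Cln3 (chr7:126583342-126583395, minus strand): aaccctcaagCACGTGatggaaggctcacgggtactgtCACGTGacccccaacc
Atp6v0b (chr4:117887332-117887375, minus strand): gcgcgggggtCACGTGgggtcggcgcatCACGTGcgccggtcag
Clcn7 (chr17:25133366-25133390, plus strand): cgtcgtcagtCACGTGggcaccgat
Mcoln1 (chr8:3500438-3500489, plus strand): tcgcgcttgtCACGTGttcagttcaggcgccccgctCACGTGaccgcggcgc
Clcn7, a chloride transporter, rose by 0.84 and Mcoln1, a lysosomal calcium channel, by 0.51. The window of Hexa held no match, so the letters do not mark every gene of the group.

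Of 30 genes for splicing factors and the kinases and cyclins that act on them, 14 rose and 10 fell, in a list written after values were seen. Clk1, a kinase of splicing factors, rose from 110.0 and 99.4 to 271 and 309 CPM (log2 change 1.47, SE 0.07), Clk4 from 25.5 and 21.3 to 49.9 and 55.4 CPM (log2 change 1.17, SE 0.08) and the cyclin gene Ccnl1 from 67.5 and 62.4 to 166 and 185 CPM (log2 change 1.44, SE 0.06). The splicing factor gene Srsf5 fell by 0.39.

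**Figure D3:**
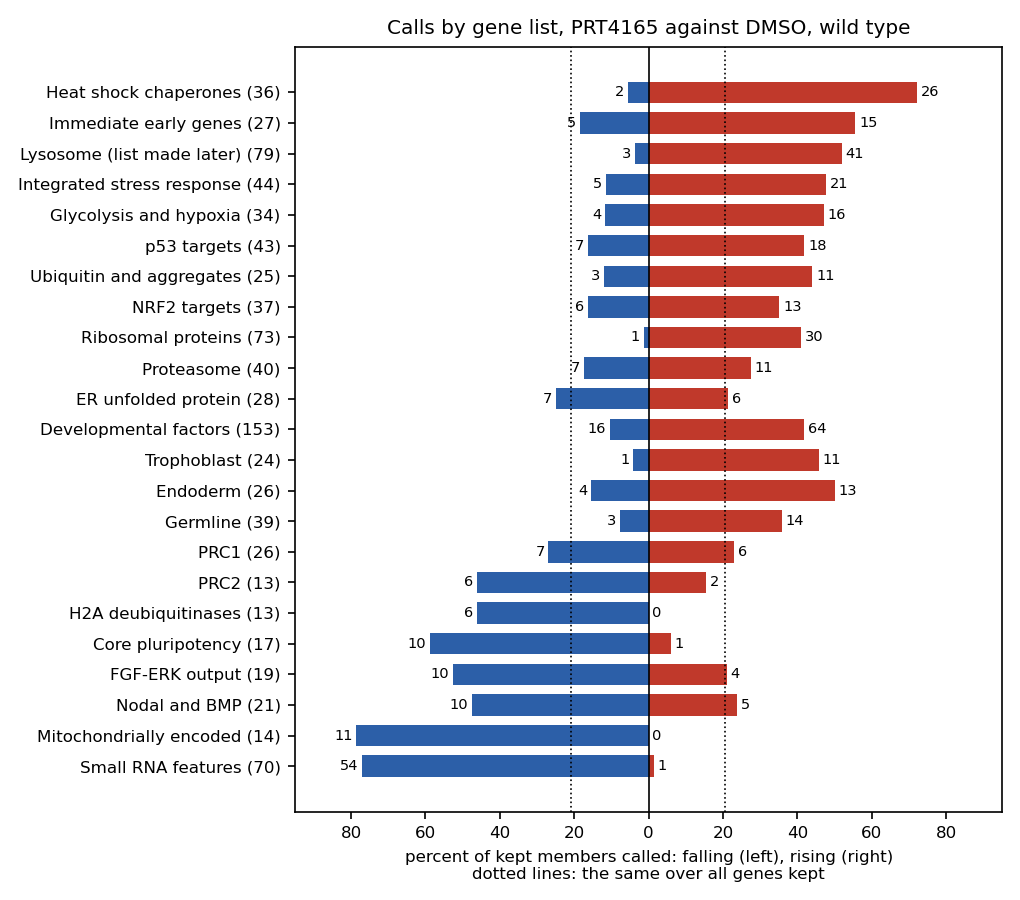
Percent of the kept members of each gene list that rose (red, right) or fell (blue, left) with the inhibitor in wild-type cells, with the number of genes at the bar and the number kept in brackets. Dotted lines mark the shares over all genes tested, 20.4% rising and 20.9% falling. Chaperones, immediate early genes, lysosomal genes and endoderm genes lie furthest right, mitochondrially encoded genes and small RNA features furthest left.

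Transcripts of the enzymes that the inhibitor targets were not called. Rnf2, the main catalytic subunit in stem cells, stood at 305 and 303 CPM with vehicle and 296 and 294 CPM with the inhibitor, and Ring1 at 14.5 and 16.2 CPM with vehicle and 16.5 and 16.4 CPM with the inhibitor. Neither was called (edgeR adjusted p = 0.409 and 0.415). Of 26 PRC1 genes 6 rose and 7 fell, shares near the background. Bmi1, a subunit of canonical PRC1, rose from 9.57 and 9.48 to 14.9 and 16.9 CPM (log2 change 0.73, SE 0.09), and the canonical subunit Cbx7, which reads the mark of Polycomb repressive complex 2, fell from 144 and 157 to 105 and 98.5 CPM (log2 change -0.57, SE 0.05). Pcgf1, Pcgf2 and Pcgf6, which define variant and canonical forms, had changes of 0.23, -0.05 and 0.03 and were not called. Without vehicle replicate 1 the change of Pcgf2 was -0.17. Scml2, a PRC1 partner known from the germline, rose from 1.47 and 1.13 to 3.66 and 3.49 CPM (log2 change 1.47, SE 0.17). Of 13 genes of Polycomb repressive complex 2 there were 2 rising and 6 falling. Its enzyme Ezh2 (edgeR adjusted p = 0.986) and its subunit Eed (0.153) were not called, and Suz12 had a call at 0.14 that was lost without vehicle replicate 2 (0.09) or inhibitor replicate 2 (0.12). Of 13 genes for enzymes that remove ubiquitin from H2A, or their partners, 6 fell and the rest were not called. Those that fell included Asxl1 (-0.34), Usp12 (-0.35) and Mysm1 (-0.41). The gene of the histone variant H2afx fell from 257 and 262 to 132 and 125 CPM (log2 change -1.01, SE 0.04), and was chosen after its value was seen.

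Developmental transcription factors are the classic targets of PRC1. Of 268 listed and counted by the authors, 153 had enough reads to be tested, and 64 of these rose, 50 of them by more than 2-fold, while 16 fell and 73 were not called. Their summed level was 1742 and 1796 CPM with vehicle and 1627 and 1644 CPM with the inhibitor. The other 115 failed the filter, and a gene silent with vehicle could pass it only through its inhibitor libraries, so these counts describe the tested genes and not the class. The calls are given by vehicle level, because the filter favours rises among the low factors. Among the 92 tested factors under 1 CPM with vehicle 50 rose and the rest were not called, beside 697 rising (28.8%) and 85 falling among all 2422 tested genes at that level. Among the 61 at 1 CPM or more 14 rose and 16 fell, beside 18.7% rising and 24.3% falling among all genes there. The summed level of the 92 low factors went from 32.4 and 35.6 to 76.4 and 85.3 CPM, and none of them had a mean above 2.59 CPM with the inhibitor.

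Homeobox genes that rose included factors of the forebrain, limb and somites. Dlx2, a factor of forebrain interneurons and branchial arches, stood at 0.035 and 0.0609 CPM with vehicle and 1.56 and 2.01 CPM with the inhibitor (log2 change 5.06, SE 0.52, edgeR adjusted p = 1.5e-07). Lhx9, which acts in gonad and limb, stood at 0.035 and 0.0609 CPM with vehicle and 1.56 and 1.12 CPM with the inhibitor, Uncx, a somite gene, at 0.0701 and 0.0914 CPM with vehicle and 1.56 and 1.48 CPM with the inhibitor, and Pitx1, a hindlimb gene, at 0.28 and 0.335 CPM with vehicle and 1.7 and 1.77 CPM with the inhibitor. All 4 had every inhibitor library above every vehicle library. Ebf3, a neuronal factor, rose from 0.175 and 0.0914 to 2.57 and 2.61 CPM (log2 change 4.27, SE 0.39), Tbr1, of cortical neurons, from 0 and 0.0609 to 1.12 and 1.2 CPM, and Tbx1, of the pharynx, from 0.175 and 0.457 to 2.74 and 2.13 CPM. Pax9 rose from 0 and 0.0609 to 1.01 and 0.843 CPM and the neuronal factor Neurod1 from 0.561 and 0.579 to 1.93 and 2.57 CPM. Of 38 Hox genes 12 could be tested, and 3 rose, among them Hoxd13 (from 0.841 and 0.731 to 2.51 and 2.41 CPM) and Hoxb9 (from 1.33 and 1.61 to 3.66 and 4.49 CPM).

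Factors with a measurable starting level gave firmer values. Tfap2c, a regulator of trophoblast and of primordial germ cells, rose from 12.1 and 10.9 to 29.7 and 32.2 CPM (log2 change 1.43, SE 0.07, edgeR adjusted p = 2.5e-12). Zic2, which acts in neural tissue and at primed enhancers, rose from 2.73 and 3.26 to 7.01 and 9.03 CPM (log2 change 1.39, SE 0.13), and Gata3, a trophoblast factor, from 1.23 and 1.04 to 3.41 and 3.21 CPM (log2 change 1.56, SE 0.18). Other factors fell. Hes1, a Notch and BMP target, fell from 66.6 and 71 to 34 and 32.1 CPM (log2 change -1.06, SE 0.06), Tcf15 from 224 and 207 to 135 and 136 CPM (log2 change -0.66, SE 0.05), Foxd3 from 93.4 and 103 to 62.2 and 65.7 CPM (log2 change -0.62, SE 0.05) and Nkx6-3 from 30.6 and 26.9 to 16.3 and 16.5 CPM. Gbx2, which shares 43.5% of its exon length with another gene, fell by 0.37.

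Genes of extraembryonic lineages rose more often than the background, but this was not particular to them. Of 16 mesoderm genes 6 rose and 2 fell, and of 16 neural ectoderm genes 5 rose and 1 fell. Of 18 primed epiblast genes 3 rose and 6 fell. The limit of the filter given above holds for the low members of these lists. Of 24 trophoblast genes 11 rose and 1 fell, with a median of 0.35, and Esx1 went from 1.26 and 1.01 to 3.21 and 3.17 CPM. The summed level of the 24 changed little, at 547 and 527 CPM with vehicle and 559 and 531 CPM with the inhibitor. Without vehicle replicate 2, 7 trophoblast genes rose. Of 26 endoderm genes 13 rose and 4 fell. The basement membrane genes among them were abundant: Lama1, a laminin chain, rose from 566 and 553 to 807 and 760.1 CPM (log2 change 0.49, SE 0.05), Hspg2, or perlecan, from 834 and 832 to 1229.9 and 1092 CPM (log2 change 0.48, SE 0.05), and the collagens Col4a1 and Col4a2 by 0.33 and 0.44. Cxcr4, a chemokine receptor of definitive endoderm, rose from 0.315 and 0.427 to 2.12 and 2.57 CPM. A panel of 8 primitive endoderm markers had a summed level of 232 and 250 CPM with vehicle and 288 and 289 CPM with the inhibitor (3 rising, 1 falling). Its most abundant marker alone went from 75.4 and 72.1 to 114 and 106 CPM. A panel of 6 trophoblast markers had 9.22 and 8.01, then 12.5 and 13.3 CPM (4 tested, 2 rising, Tpbpa at 0). Whether cells of those types account for any of these rises was not tested.

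**Figure D4:**
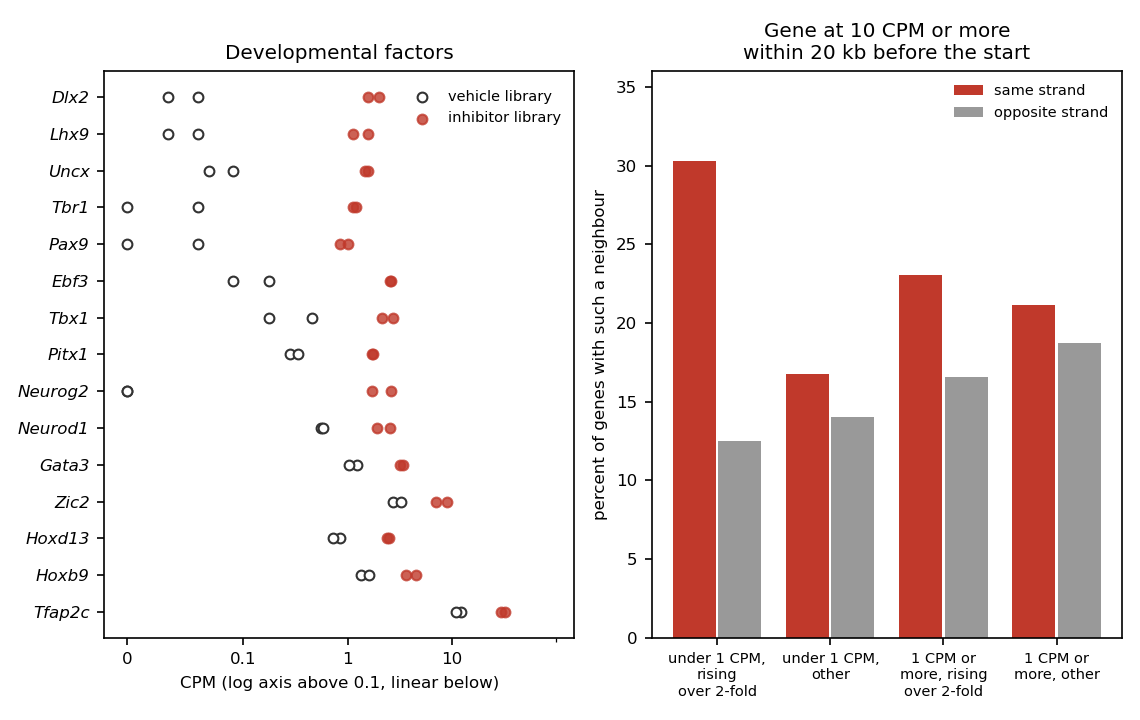
Left, levels in CPM of 15 developmental factors in each wild-type library, open circles for vehicle and red for inhibitor, on an axis that is linear below 0.1 and logarithmic above. Right, percent of genes with a neighbour at 10 CPM or more within 20 kb before their start, on the same strand (red) or the opposite strand (grey). Genes under 1 CPM that rose over 2-fold had such a same-strand neighbour in 30.3% of cases and other genes at that level in 16.7%. Low genes with too few vehicle reads were tested only through their inhibitor libraries, so these sets may differ in vehicle level.

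Rises from near silence were not limited to developmental factors. Of the 761 genes that rose by more than 2-fold 615 were under 1 CPM with vehicle, and 33 tested genes had no read in either vehicle library. For those 33 a fold is a lower bound, set with 3 reads over the vehicle group. A gene silent with vehicle was tested only if its inhibitor libraries passed the filter. Counts of low genes therefore lean towards rises and support no direction. Ccdc81, known for a role near centrosomes, had 4.69 and 4.81 CPM with the inhibitor and was at least 97-fold higher. Neurog2, a proneural factor, had 1.7 and 2.61 CPM (at least 42.4-fold), the lectin gene Colec11 1.73 and 1.93 CPM (at least 37-fold), Tmem236 1.2 and 1.24 CPM (at least 24.9-fold) and the glutamate receptor gene Grm5 1.12 and 1.04 CPM (at least 22.2-fold). Osgin1, Tlr13, Trim30b and Nmrk2 were at least 15.5, 14.8, 11.8 and 11.4 times higher. In these genes both inhibitor libraries held reads and both vehicle libraries none.

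Several genes of specialised tissues reached clear levels. P2rx7, an ATP-gated channel of immune cells, stood at 1.4 and 1.68 CPM with vehicle and 156 and 202 CPM with the inhibitor (log2 change 6.85, SE 0.16, edgeR adjusted p = 5.5e-18). Il17f, a cytokine of T cells, stood at 0.175 and 0 CPM with vehicle and 15.3 and 18.5 CPM with the inhibitor, Adra2a, an adrenergic receptor, at 0.21 and 0.122 CPM with vehicle and 12.6 and 15.2 CPM with the inhibitor, and Mc1r, the pigment receptor, at 0.0701 and 0.122 CPM with vehicle and 6.87 and 7.18 CPM with the inhibitor. Rsph6a, of the sperm flagellum, stood at 0.035 and 0.0305 CPM with vehicle and 1.82 and 3.17 CPM with the inhibitor, Fam83a at 0 and 0.0305 CPM with vehicle and 1.28 and 1.85 CPM with the inhibitor, Dnah14 at 0 and 0.0305 CPM with vehicle and 1.87 and 1.93 CPM with the inhibitor and C1ra at 0 and 0.0305 CPM with vehicle and 1.4 and 0.923 CPM with the inhibitor. P2rx7 is the exception in this group in that it passed 100 CPM. Promoter windows of genes that rose over 2-fold from under 1 CPM had a median of 9 CpG pairs, beside 12 for all tested genes at that level and 22 for all tested genes. Which low genes were tested depended on the filter, as stated above.

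A share of these genes lies shortly after an active gene on the same strand. Positions were taken from an annotation of build GRCm38, a later one than the mm9 used for counting. Of 577 placed genes under 1 CPM that rose over 2-fold, 175 (30.3%) had a gene at 10 CPM or more ending within 20 kb before their start on the same strand. The share was 16.7% for the other 1648 genes at that level. On the opposite strand the shares were 12.5% and 14%. For genes at 1 CPM or more, the same-strand shares were 23.0% for those rising over 2-fold and 21.1% for the rest. Within 5 kb the shares of the low genes were 13.3% and 6.61% on the same strand, and 3.81% and 6.92% on the opposite strand, where the order was reversed. These are descriptions with no test, and gene position was examined after the largest rises were seen. A gene with too few vehicle reads was tested only where its inhibitor libraries passed the filter. The rising and the other low genes may therefore differ in vehicle level, and the shares do not compare like with like.

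Among the genes with no vehicle reads or the largest rises from under 1 CPM, 16 are named above, of which 9 had such a neighbour and 7 had none. Of the 9 neighbours 6 rose, by 0.54 or less on the log2 scale, and 3 were not called. For Rps7 and Tcf25 the lack of a call rests on vehicle replicate 1, without which their changes were 0.12 and -0.12. Over all genes tested 20.4% rose. Unnamed genes with rises in the same range also had neighbours. None of those neighbours rose, 1 fell (-0.20) and the rest were not called, so the named genes give too high a share of rising neighbours. Ccdc81 lies 13.9 kb after Hikeshi, the carrier of HSP70 into the nucleus, which rose from 56.8 and 53 to 63 and 65.2 CPM (0.22). Neurog2 lies 15.1 kb after Zgrf1 (0.00, not called), and Colec11 7.48 kb after the ribosomal gene Rps7 (0.09, not called), which stood at 1141 and 1098 CPM with vehicle and 1182 and 1195 CPM with the inhibitor. Il17f lies 12.4 kb after the replication gene Mcm3, which rose from 844 and 809.7 to 1133 and 1109 CPM. Tlr13 lies 18.3 kb after Atp7a, a copper transporter gene, which rose from 14 and 12.2 to 19.7 and 18.1 CPM. Adra2a lies 11 kb after Shoc2 (0.33), Fam83a 15.4 kb after Tbc1d31 (0.28), Mc1r 3.27 kb after Tcf25 (-0.06, not called) and Rsph6a 0.072 kb after Sympk (0.29). Tmem236, Grm5, Osgin1, Trim30b, Nmrk2, Dnah14 and C1ra had no such neighbour within 20 kb. Reads between genes are not in a table of gene counts, so whether transcription runs from one gene into the next was not tested.

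Pluripotency genes fell in part. Of 17 core factors 10 fell and 1 rose, with a median of -0.16. Sox2, which binds DNA with Oct4, fell from 418 and 444 to 258 and 258 CPM (log2 change -0.74, SE 0.04, edgeR adjusted p = 4.4e-11), and Nanog from 643 and 666 to 578 and 565 CPM (log2 change -0.20, SE 0.04). Pou5f1, which encodes Oct4, stood at 989 and 876 CPM with vehicle and 983 and 961 CPM with the inhibitor and was not called (edgeR adjusted p = 0.386, and 0.0136 at a log2 change of 0.15 without vehicle replicate 1). L1td1, an RNA-binding protein of stem cells, fell from 1158 and 1103 to 849.7 and 785 CPM. Fgf4, a target of Sox2 and Oct4, fell from 151 and 151 to 97.7 and 93.7 CPM (log2 change -0.66, SE 0.04). Fgf4 signals through ERK, and of 19 genes of that output 10 fell and 4 rose. Feedback inhibitors went both ways. Dusp6 fell from 143 and 145 to 97.9 and 104 CPM, Spred1 from 159 and 153 to 110.0 and 104 CPM and Spry4 from 181 and 184 to 138 and 140.4 CPM, while the phosphatase genes Dusp4 and Dusp5 rose by 0.37 and 0.26. Egr1, in the same list, rose as given above. Myc fell by 0.37 and Mycn rose from 35.4 and 36.4 to 54.8 and 66.3 CPM (log2 change 0.75, SE 0.07).

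Of 21 genes of the Nodal and BMP pathways 10 fell, 5 rose and 6 were not called. Lefty1, a Nodal antagonist and target, fell from 39.6 and 39.9 to 15.1 and 15.2 CPM (log2 change -1.39, SE 0.07, edgeR adjusted p = 3e-12), and Lefty2 from 62.9 and 54.1 to 38.6 and 33.5 CPM. Id1, a BMP target that blocks differentiation, fell from 163 and 148 to 54.8 and 67 CPM (log2 change -1.36, SE 0.07), the ligand Nodal from 46.9 and 46.4 to 33.7 and 34.3 CPM and the co-receptor gene Tdgf1 from 744 and 759 to 500.4 and 478 CPM. Id2 went the other way, from 18.1 and 20.7 to 30.9 and 33.4 CPM (log2 change 0.72, SE 0.07).

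Mitochondrially encoded transcripts were lower, and here the vehicle libraries differed. Of 14 tested 11 fell and 3 were not called, with a median of -0.51, while 75 nuclear genes of the respiratory chain had 14 rising and 7 falling. mt-Nd1 fell from 2746 and 3652 to 1109.8 and 1131 CPM (log2 change -1.51, SE 0.09, edgeR adjusted p = 3.5e-11), mt-Nd3 from 361 and 382 to 155 and 165 CPM (log2 change -1.22, SE 0.05), mt-Co2 from 3425 and 3902 to 2039 and 2078 CPM and the ribosomal RNA mt-Rnr2 from 877 and 1287 to 468 and 489 CPM. mt-Co1 stood at 7617 and 10239.5 CPM with vehicle and 6634 and 6599 CPM with the inhibitor. mt-Nd4 stood at 1825 and 2741 CPM with vehicle and 2100.5 and 2167 CPM with the inhibitor, with the inhibitor libraries between the vehicle ones. Mitochondrial genes took 2.48% and 3.34% of reads with vehicle and 1.93% and 1.97% with the inhibitor. Without vehicle replicate 2, which had the higher share, 8 fell and 2 rose, and mt-Nd4 rose (0.22, edgeR adjusted p = 0.00131). Without vehicle replicate 1, 14 fell. DESeq2 called 7 of the genes lower. Of 73 ribosomal protein genes 30 rose and 1 fell, by small amounts (median 0.10). That count was 48 without vehicle replicate 1 and 18 without inhibitor replicate 1.

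Features for small RNAs fell. Of 70 features for small nucleolar and small nuclear RNAs tested, which in poly(A) libraries may carry reads of precursors or overlapping transcripts, 54 fell and 1 rose. The riser was Gm24046, a small nuclear RNA feature chosen after its value was seen, from 0.035 and 0 to 0.475 and 0.722 CPM. Their summed level went from 85.5 and 75.5 to 26.3 and 32.7 CPM. Of 11 tested features named for microRNAs, among them the host Mir17hg, 7 fell and 0 rose. Features of 3 microRNAs of the stem cell cluster on chromosome 7 were among the largest falls: Mir295 from 1.19 and 1.25 to 0.168 and 0.241 CPM (log2 change -2.60, SE 0.39), Mir291b from 1.19 and 0.914 to 0.112 and 0.321 CPM and Mir293 from 1.23 and 1.34 to 0.223 and 0.281 CPM. Each lies wholly inside the annotation of Nlrp12, so these reads may belong to another transcript. The mature RNAs, from RefSeq in build GRCm38.p6 and with the seed (bases 2 to 8) in capitals, are shown because a seed decides which targets a microRNA can bind. No full seed is shared among the 3, but those of miR-295-3p and miR-291b-3p differ only at base 8.
mmu-miR-295-3p (chr7:3220815-3220837, plus strand): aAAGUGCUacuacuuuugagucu
mmu-miR-291b-3p (chr7:3219529-3219550, plus strand): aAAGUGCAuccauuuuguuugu
mmu-miR-293-3p (chr7:3220390-3220411, plus strand): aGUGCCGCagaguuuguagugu
Host transcripts went both ways. Mir17hg, host of a cluster tied to proliferation, fell from 43.8 and 36.8 to 12.5 and 18.1 CPM (log2 change -1.42, SE 0.12), and Gas5, a host of small nucleolar RNAs, from 96.9 and 88.6 to 47.3 and 57.4 CPM (log2 change -0.83, SE 0.07), while Snhg15, another such host, rose from 22.5 and 16.8 to 36.4 and 45.3 CPM (log2 change 1.06, SE 0.10). The last 2 were chosen after their values were seen.

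Outside those features the largest falls were smaller. Zfp85, a zinc finger gene, fell from 4.17 and 2.89 to 1.06 and 0.802 CPM (log2 change -1.88, SE 0.24), Plppr3 from 2.87 and 2.35 to 0.67 and 1.04 CPM (log2 change -1.65, SE 0.25) and Samd9l from 5.05 and 4.14 to 1.98 and 1.28 CPM (log2 change -1.44, SE 0.20). Fjx1, a kinase of cell polarity, fell from 12.5 and 11.3 to 4.16 and 4.05 CPM (log2 change -1.53, SE 0.11), Hddc3 from 8.73 and 8.44 to 3.02 and 4.09 CPM (log2 change -1.30, SE 0.15) and Platr25 from 2.38 and 2.68 to 0.921 and 1.24 CPM (log2 change -1.26, SE 0.22). Of 39 germline genes known to be silenced by DNA methylation 14 rose and 3 fell, with a median of 0.14.

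The inhibitor response was then compared with that of TKO cells, which asks whether it differs in cells without DNA methyltransferases. The difference in response passed the threshold for 663 genes, or 4.44% of those tested, with 323 higher and 340 lower in TKO cells. This count was 416 in DESeq2 and 382 without inhibitor replicate 2. Of the 761 genes that rose over 2-fold in wild-type cells 544 also rose in TKO cells, 211 were not called there and 6 fell. A lower change in TKO cells was called for 119 of them and a higher one for 5. The choice of genes by their wild-type rise favours lower changes, and genes chosen by a wild-type fall tilt likewise (187 fell less in TKO cells and 33 fell more), so these counts support no direction. The labels name no more than 1 line of TKO cells, so loss of the enzymes and other traits of that line cannot be told apart.

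For some stress and lysosomal genes no difference between genotypes was called. Dnajb1 rose by 2.21 in wild-type and 2.20 in TKO cells, Hspa8 by 0.54 and 0.37, and Hexa and Dpp7 by 1.82 and 1.98 and by 2.61 and 2.63. Their edgeR adjusted p of the difference was 0.977, 0.102, 0.343 and 0.976. Other stress genes had a lower log2 change in TKO cells, some of them over a higher vehicle level. Atf3 rose by 3.58 and 1.04 (edgeR adjusted p of the difference = 1.3e-08), Jun by 3.61 and 1.63 (9.5e-08), Bag3 by 2.59 and 1.27 (7.9e-08) and Hmox1 by 1.99 and 1.06 (1.1e-08). In TKO cells Hmox1 stood at 354 and 340.3 CPM with vehicle and 696 and 746 CPM with the inhibitor, and Bag3 at 50.2 and 49.5 CPM with vehicle and 113 and 127 CPM with the inhibitor. In CPM those rises were not smaller than in wild-type cells. Jun stood at 15.2 and 15.4 CPM with vehicle and 45.4 and 49.1 CPM with the inhibitor and Atf3 at 7.51 and 6.93 CPM with vehicle and 13.7 and 16.1 CPM with the inhibitor in TKO cells. Among the 153 developmental factors tested, the change was lower in TKO cells for 15 and higher for 1, Hes1. Of the 15, 11 were under 1 CPM with vehicle in wild-type cells. Among all 2422 tested genes at that level 78 had a lower change and 6 a higher one. Genes were filtered on the wild-type libraries, which favours lower changes in TKO cells among low genes. These counts therefore support no direction. Zic2 changed by 1.39 and 0.00 (4.4e-06), and Ebf3 by 4.27 and 1.48 (0.00271). Both had higher vehicle levels in TKO cells, where Zic2 stood at 63.9 and 63.2 CPM with vehicle and 63.7 and 63.7 CPM with the inhibitor and Ebf3 at 0.926 and 1.57 CPM with vehicle and 3.81 and 3.15 CPM with the inhibitor. Mycn and Id2 changed in opposite directions, by 0.75 and -0.50 and by 0.72 and -0.38, as did Atf4 by -0.33 and 0.29. Their vehicle levels in TKO cells were 131 and 134, 74.7 and 79.7 and 60 and 59.4 CPM.

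**Figure D5:**
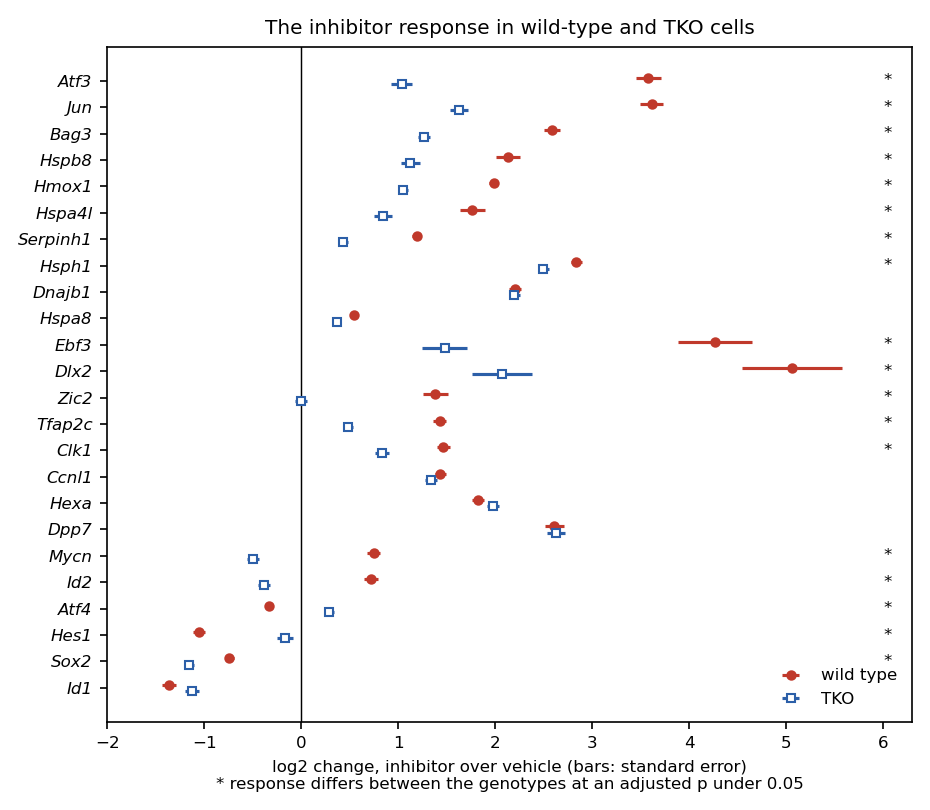
Log2 change of inhibitor over vehicle for 24 genes in wild-type cells (red circles) and TKO cells (blue open squares). Bars show 1 approximate standard error, with n = 2 libraries in each group. A star marks a difference between genotypes at an adjusted p under 0.05. Atf3, Jun and Bag3 had a lower log2 change in TKO cells, Dnajb1, Hexa and Dpp7 carry no star, and Mycn, Id2 and Atf4 changed sign.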

How the data were processed

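Counts of reads per gene in 8 libraries were deposited by the authors as whole numbers without normalization; the submitters' processing notes name mm9, HTSeq 0.5.3p9, TopHat2 2.0.2 and Bowtie 0.12.8. Neither the strand setting nor the annotation release is stated in the sources used, so reads in shared exons cannot be assigned by strand. Symbols, biotypes, gene order and exon overlaps came from GENCODE, promoter and microRNA sequences from RefSeq, both on GRCm38. Of 37991 IDs 32919 had a symbol.

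Genes were kept by filterByExpr on the wild-type groups (minimum count 10, minimum total 15). TMM scaling and 1 quasi-likelihood fit of the 4 inhibitor-experiment groups followed (R 4.3.3, edgeR 4.0.16, limma 3.58.1), 4 residual degrees of freedom and a biological coefficient of variation of 3.69%. Tests were two-sided with Benjamini-Hochberg adjustment over 14938 genes, tested on simulated data with known changes. For a gene at 0 the floor was 3 counts summed over both libraries, which covers counting error only. DESeq2 1.42.0, other scalings and filters, the wild-type libraries alone, a replicate block and leaving out each library were alternatives.

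The comparison and gene lists were chosen with earlier results of these data known. Genes were named by a rule: up to 4 called members per list and direction with the smallest p, the 15 largest rises and falls with a mean of at least 1 CPM in the higher group (unnamed models and small RNAs skipped), fixed anchors, and up to 10 genes at 0 with vehicle; a call also needed libraries that do not overlap. Outside the rule, and chosen after their values were seen, are Asns, Atp6v0b, Atp6v0d1, Atp7a, Ccnl1, Cdkn1a, Chac1, Clcn7, Clk1, Clk4, Cln3, Col4a1, Ctsa, Cxcr4, Ddit3, Dpp7, Egr2, Flcn, Fos, Gas5, Gclm, Gm24046, H2afx, Hexa, Hikeshi, Hsp90ab1, Hsp90b1, Hspa1l, Hspa4l, Hspa8, Hspb1, Hspb8, Hspd1, Hspe1, Lamp1, Lefty2, Mcoln1, Mdm2, Mt1, Nqo1, Rps7, Serpinh1, Shoc2, Snhg15, Srsf5, Srxn1, Sympk, Tbc1d31, Tcf25, Trib3, Ubb, Vps11, Zgrf1, mt-Co1, mt-Nd4 and mt-Rnr2. Exons also overlap another annotated gene, by 5% to 20% of their length, for Ctsa, Hexa, Lamp1, Cln3, Atp6v0b, Sqstm1, Jun, Gclm, Gata3, Neurod1, Pou5f1, Dnaja1, Hspe1, Hsp90b1, Nmrk2, Mir17hg, Gas5, Snhg15, Plppr3, Zfp85 and Hddc3.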

Additional observations from a re-analysis of the deposited data

Results flagged for a closer look

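A response that differed between genotypes, by edgeR's test of the difference itself at an adjusted p under 0.05, was found for 41 of the 168 named genes. Over all genes tested it was found for 663, or 4.44%. Many of the named genes were chosen for their change in wild-type cells, which favours smaller changes in TKO cells. The list therefore supports no direction and no excess over that share. The value after each gene is the log2 change with the inhibitor in TKO cells minus that in wild-type cells, from 2 libraries in each of the 4 groups. Negative values mean a lower change in TKO cells, as a ratio to vehicle levels that differ between the genotypes.

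Stress genes with a lower change in TKO cells were Atf3 (-2.54), Jun (-1.99), Bag3 (-1.32), Egr1 (-1.03), Hspb8 (-1.01), Hmox1 (-0.93), Hspa4l (-0.92), Herpud1 (-0.89), Serpinh1 (-0.75), Hsph1 (-0.34), Sesn2 (-0.27) and Plk2 (-0.59). The splicing kinase gene Clk1 had -0.63. Developmental factors with a lower change were Lhx9 (-3.21), Dlx2 (-2.99), Ebf3 (-2.79), Zic2 (-1.38), Gata3 (-1.15), Neurod1 (-1.13), Id2 (-1.10), Tfap2c (-0.94), Hoxd13 (-0.93), Esx1 (-0.85) and Mycn (-1.24). The germline PRC1 partner Scml2 had -1.07 and the receptor gene Adra2a -2.19. Ccdc81 had -5.68, and because it had no vehicle read in wild-type cells that size depends on the prior count. Basement membrane genes had Lama1 (-0.55), Col4a1 (-0.55), Col4a2 (-0.55) and Hspg2 (-0.48). Within TKO cells Col4a1 fell (log2 change -0.21), and Lama1, Col4a2 and Hspg2 were not called. Some pluripotency genes fell further in TKO cells, with Sox2 (-0.41), Tdgf1 (-0.39) and Nanog (-0.26), while no difference was called for L1td1 or Fgf4.

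Higher changes in TKO cells were found for Atf4, 0.62, Clcn7, 0.41, and for genes that fell less there. These were Spry4 (0.28), mt-Co2 (0.41), Fjx1 (0.63), Hes1 (0.89) and Plppr3 (1.47).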

How the results depend on the processing

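Rising and falling calls numbered 3030 and 3125 with RLE scaling, 2923 and 3249 with library size only, 2366 and 2459 in DESeq2, 3122 and 3064 with no filter but 1 read, 2781 and 2815 at a mean of 1 CPM, and 2662 and 2779 in the 4 wild-type libraries alone. Leaving out 1 library at a time gave 2276 to 2824 rising and 2302 to 2959 falling genes. The count of genes whose response differed between genotypes was 663, was 416 in DESeq2, and ranged from 382 without inhibitor replicate 2 to 970 without vehicle replicate 1. The cause was not tested. A replicate block gave 2996 rising, 3092 falling and 613 differing genes. Same-numbered libraries did not deviate together (correlations of -0.0386 to 0.0335 between groups, -0.0102 in wild-type cells). These values cannot tell whether same-numbered libraries were handled together, which the labels do not state. With genes at a mean of 1 CPM or more, 287 genes rose over 2-fold and 25 developmental factors rose. Of the 168 named genes 159 had the same call under every alternative run, and 9 did not: Hsf1, Hsp90b1, Pcgf1, Pcgf2, Pou5f1, Rps7, Suz12, Tcf25 and mt-Nd4. The change of mt-Nd4 was -0.10 in all libraries, not called, and ranged from -0.36 without vehicle replicate 1 to 0.22 without vehicle replicate 2. Depth limits genes under 1 CPM, which rest on few reads. With 2 libraries a group, 1 library can decide a call.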
